A study of Homo sapiens with 9 samples.

Results

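The genes described here are 8 transcription factors that specify and maintain the hepatocyte lineage: HNF4A, FOXA1, FOXA2, FOXA3, CEBPA, CEBPB, NR1H4 and ONECUT1. They were picked out of the table by gene symbol alone, and each was found once among the 60683 genes of the count table. All 8 passed the filter on low counts, as did 22672 genes in all. RNA was sequenced from 9 cultures of Hep3B, a single human hepatocellular carcinoma line, in 3 groups of 3 labelled biological replicates. The groups were vehicle (DMSO) at 20% O2, vehicle at 1% O2, and 32-134D, an inhibitor of hypoxia-inducible factors (HIFs), at 1% O2, and all cultures were harvested after 24 hours. No library of cells given 32-134D at 20% O2 was analysed here, so its comparisons rest on hypoxic cells only, and the labels state no dose. The comparison of the 2 vehicle groups asks what hypoxia does to these mRNAs, and the comparison of 32-134D with vehicle at 1% O2 asks what the inhibitor does to them in hypoxia.

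In the liver, identity is held by a small network of factors that bind each other's regulatory regions and those of hepatocyte genes. The FOXA proteins are pioneer factors that open chromatin, HNF4A is a nuclear receptor that drives genes of lipoprotein, clotting factor and glucose metabolism, and ONECUT1 (HNF6) acts early in hepatocyte and bile duct development. CEBPA maintains metabolic genes in resting hepatocytes, CEBPB is linked to acute phase, stress and growth responses, and NR1H4 encodes FXR, the bile acid receptor. HIFs bind DNA at a short core sequence, with A or G before CGTG, when oxygen is low.

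Windows of 250 bases before the annotated RefSeq start (build GRCh38.p14) were found for 7 of the 8 genes. FOXA2 had no entry. The sequences are shown for CEBPA, CEBPB, FOXA3 and NR1H4 because these 4 had the largest fold differences of the 8 in hypoxia. Bases inside annotated exons of the gene were left out, and any HIF core is in capitals, ACGTG or GCGTG on either strand. The CEBPA stretch is the window of its divergent noncoding neighbour CEBPA-DT, which lies between the 2 starts.
CEBPA to CEBPA-DT gap, chr19:33302571-33302820, plus strand: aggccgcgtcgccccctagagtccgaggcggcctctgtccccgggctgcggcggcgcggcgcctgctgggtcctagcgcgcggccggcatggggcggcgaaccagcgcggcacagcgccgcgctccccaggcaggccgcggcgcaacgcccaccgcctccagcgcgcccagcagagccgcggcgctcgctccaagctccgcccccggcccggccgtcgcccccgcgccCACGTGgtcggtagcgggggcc
CEBPB, chr20:50190580-50190733, plus strand: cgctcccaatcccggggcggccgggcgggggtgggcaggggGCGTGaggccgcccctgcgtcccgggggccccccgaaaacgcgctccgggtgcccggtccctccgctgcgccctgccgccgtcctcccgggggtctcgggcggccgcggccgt
FOXA3, chr19:45864192-45864259, plus strand: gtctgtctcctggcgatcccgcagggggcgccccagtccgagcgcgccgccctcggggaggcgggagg
NR1H4, chr12:100503110-100503359, plus strand: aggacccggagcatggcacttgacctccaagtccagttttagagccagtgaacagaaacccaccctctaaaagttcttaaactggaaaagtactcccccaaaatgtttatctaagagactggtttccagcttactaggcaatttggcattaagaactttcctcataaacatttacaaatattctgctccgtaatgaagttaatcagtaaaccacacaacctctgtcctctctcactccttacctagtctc

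The CACGTG in the CEBPA gap lies 22 bases before the start of CEBPA-DT and reads as ACGTG on both strands, and the RefSeq window counted from the start of CEBPA itself held neither core. The GCGTG printed for CEBPB lies 209 bases before its RefSeq start at 50190830, and a second one, in the exon bases left out, lies 60 bases before it. The window before the other CEBPB start, at 50190583, held no HIF core, TATAAA or CCAAT. FOXA3 had a GCGTG 24 bases before its start, also within the bases left out. ONECUT1 had a CACGTG 209 bases and a GCGTG 64 bases before its start. The windows of FOXA1, HNF4A and NR1H4 held neither core. The NR1H4 window lies before a RefSeq start at 100503360, inside the annotated gene, which runs from 100473708 to 100564413. The sequence before the outer end of NR1H4 was not searched. Among all 35116 windows of this length, 43.2% held at least one core, 18.5% ACGTG, 32.2% GCGTG and 6.34% the full CACGTG. A match is a description of letters and not a site. CEBPA and FOXA3 had a TATAAA 30 bases and CEBPB 29 bases before the start, a motif in 10.7% of all windows. The forkhead motif TGTTTAC (2.98%) and the C/EBP motif TTGCNNAA (9.05%), searched on both strands, were not in the windows of the 7 genes. CCAAT lay in the windows of ONECUT1, of CEBPB before 50190830 and of HNF4A before 44355699, and in 32.0% of all. It was not in the HNF4A window before 44401239. Which start was used in these cells cannot be read from counts per gene, and HNF4A and CEBPB have more than one RefSeq start.

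Total counts ran from 6013980 to 40549699 per library. Levels are given as counts-per-million (CPM), scaled by the trimmed mean of M values, and levels between genes as CPM per kilobase of merged exons (RPKM). The 10 hepatocyte markers (ALB, APOA1, TTR and others) were all counted in every group, and their summed level was 19983 to 21301 CPM for vehicle at 20% O2, 15152 to 19081 CPM for vehicle at 1% O2 and 12210.4 to 19476 CPM with 32-134D. In hypoxia 2 of the 10, APOB and AFP, were called lower, where 20.3% of all genes were. By edgeR or DESeq2 0 were called higher, with 1 higher at an unadjusted p below 0.05. APOB alone went from a mean of 4487 to 406 CPM, and the median log2 fold change of the 10 was -0.010. Of 16 markers of other liver cell types, 11 or 12 had a count in each group. Their sums were 958 to 1117, 1169.9 to 1318 and 894 to 1031 CPM in the same order, mostly from EPCAM, KRT19 and SOX9. Single markers differed from the sum. Of 10 that could be tested, 5 were called lower in hypoxia (CFTR, COL1A1, COL1A2, PDGFRB and PECAM1) and 0 higher by edgeR or DESeq2, with 1 higher at an unadjusted p below 0.05. With 32-134D those 5 and LUM were called higher and KRT19 lower, and COL1A1 and KRT19 were not called without replicate 3. Of the markers of other cell types, those beyond COL1A1, COL1A2 and PDGFRB are named after their values were seen. The pericyte gene PDGFRB had means of 27.2, 10.1 and 21.99 CPM, and the endothelial gene PECAM1 0.862, 0.211 and 0.860 CPM. CD163, MARCO and VWF were at 0, and PTPRC and CDH5 had 7 and 1 counts in all. The part of these markers in the results was not tested. In bulk RNA, fewer cells that express a gene and less RNA per cell cannot be told apart.

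One library, replicate 3 of 32-134D, stood apart for these genes and in its counts as a whole. Its chi-square per degree of freedom was 36.4 against replicate 1 and 32.5 against replicate 2, with 1.998 between those replicates. Replicate 1 of each vehicle group gave smaller values. They were 6.21 and 12.02 at 20% O2, with 1.62 between replicates 2 and 3. At 1% O2 they were 7.90 and 11.81, with 2.48 between replicates 2 and 3. This measure also rises with depth, so its values are not on the same scale across groups. Depth was 6013980 to 31370726 counts at 20% O2 and 21044373 to 34154796 with 32-134D. In replicate 3 of 32-134D, NR1H4 was 5.38-fold, CEBPA 3.20-fold and ONECUT1 2.73-fold lower than the mean of replicates 1 and 2. The other 5 members differed by less than 1.5-fold, from FOXA2 at 1.27-fold lower to CEBPB at 1.36-fold higher. Thus 3 of the 8 members were over 2-fold lower in that library, whereas 2.86% of 13862 genes with a mean of at least 1 CPM were. Its summed hepatocyte markers were also the lowest, 12210.4 CPM against 19152 and 19476 CPM, and their part in the low values was not tested. Fold changes with 32-134D are therefore also given without replicate 3. Replicate 3 was picked for this from the values of these same genes, so tests without it are not independent support. They rest on replicates 1 and 2 alone for 32-134D. The 3 groups share 1 estimate of the spread, so standard errors and tests in hypoxia also depend on that library.

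**Figure D1:**
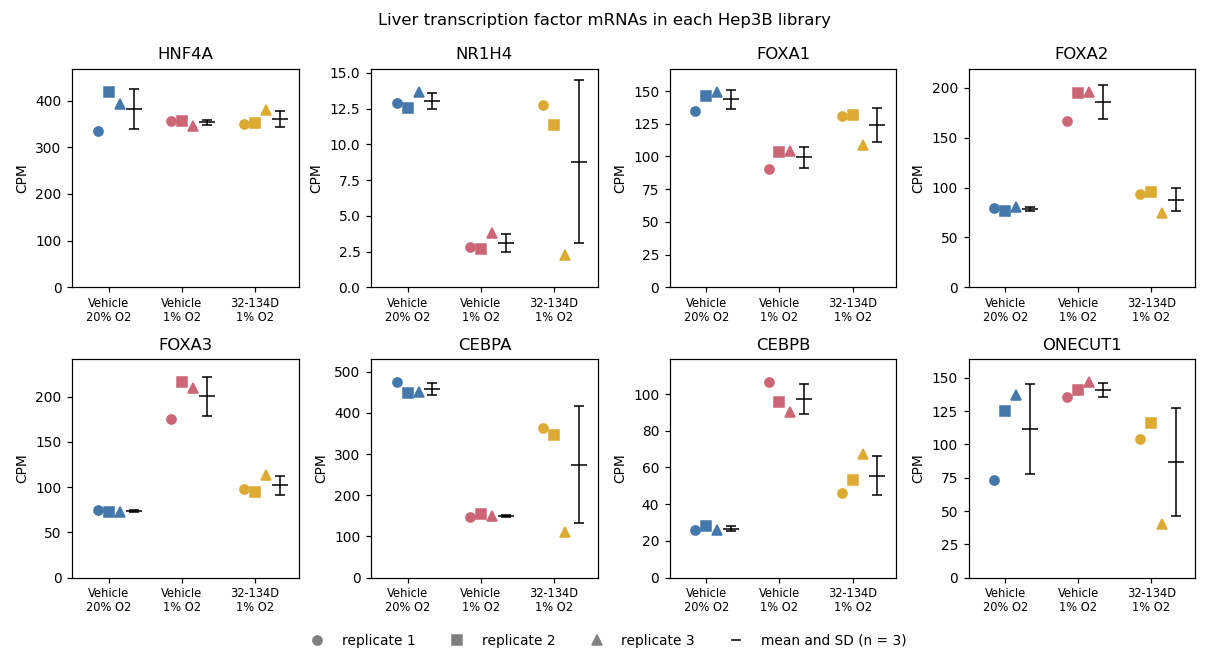
Level of each of the 8 genes (CPM, linear axes from 0) in the 9 libraries, with replicates as circles, squares and triangles and the mean and SD (n = 3) beside each group. FOXA2, FOXA3 and CEBPB are high in vehicle at 1% O2, CEBPA and NR1H4 are low there, and replicate 3 of 32-134D lies far below its group for CEBPA, NR1H4 and ONECUT1.

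Among the 8 genes, as among all genes tested, calls in hypoxia went in both directions. A gene was called when edgeR's quasi-likelihood test gave a Benjamini-Hochberg false discovery rate (FDR) below 0.05 and the fold change exceeded 1.5. By this rule 3 of the 8 rose in vehicle at 1% O2 against vehicle at 20% O2, CEBPB, FOXA3 and FOXA2, where 19.5% of all genes tested rose. CEBPA and NR1H4 fell, 2 of 8, where 20.3% of all genes fell. FOXA1, HNF4A and ONECUT1 were not called. Over all genes 4412 rose and 4595 fell, and scaled by total library size 3081 rose and 5848 fell, with all 5 of these genes called as before.

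The 3 FOXA genes encode closely related forkhead proteins, and only FOXA2 and FOXA3 were called. FOXA2 (ENSG00000125798, chromosome 20, 22581005 to 22585455, minus strand, GRCh38) was at 79.2, 76.3 and 80.4 CPM in replicates 1, 2 and 3 of vehicle at 20% O2. In vehicle at 1% O2 it was at 166, 195 and 196 CPM. The 2 groups were far apart, and every hypoxic library exceeded every normoxic one. FOXA2 rose by a log2 fold change of 1.24 (standard error 0.098, FDR 6.15e-08), which is 2.36-fold. Its 32-134D libraries held 93.1, 95.4 and 74.4 CPM, below all 3 vehicle libraries at 1% O2. Against hypoxic vehicle FOXA2 fell 2.12-fold (log2 fold change -1.08, standard error 0.096, FDR 4.39e-07), and in log2 the difference was -0.98 (FDR 1.57e-11) without replicate 3.

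FOXA3 (ENSG00000170608, chromosome 19, 45863989 to 45873797, plus strand), which in adult liver supports glucose homeostasis, had the tightest normoxic values of the family. They were 75.1, 72.9 and 73.1 CPM in vehicle at 20% O2. Vehicle at 1% O2 gave 175, 216 and 209.9 CPM, again with no overlap. FOXA3 rose 2.72-fold in hypoxia, a log2 fold change of 1.44 (standard error 0.094, FDR 8.39e-09). The 32-134D libraries held 97.7, 94.1 and 114 CPM, between the 2 vehicle groups and overlapping neither. FOXA3 fell 1.97-fold against hypoxic vehicle (log2 fold change -0.98, standard error 0.091, FDR 7.01e-07), and in log2 the difference was -1.06 (FDR 7.43e-12) without replicate 3.

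FOXA1 (ENSG00000129514, chromosome 14, 37589984 to 37596059, minus strand), the first member of the family to be described, was lower in hypoxia. Vehicle at 20% O2 gave 135, 146 and 149 CPM and vehicle at 1% O2 gave 90.2, 104 and 104 CPM. The hypoxic libraries were all lower, but the difference of -0.53 (standard error 0.089, FDR 0.000118) in log2 was 1.45-fold and stayed under the fold threshold. Its 95% interval, -0.72 to -0.34, includes changes beyond 1.5-fold. FOXA1 was called lower when counts were scaled by total library size (-0.75), when a minimum of 10 counts was required in each library (-0.64), without replicate 1 of vehicle at 20% O2 (-0.63) and without replicate 1 of 32-134D (-0.59). With 32-134D it was at 131, 132 and 109 CPM, above all hypoxic vehicle libraries, with a log2 fold change of 0.32 (standard error 0.088, FDR 0.00735) that was not called. Without replicate 3 it was 0.41 (FDR 3.86e-05).

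The balance within the family differed between the groups. Per length, FOXA1 supplied 34.4%, 37.0% and 36.9% of FOXA reads in vehicle at 20% O2. In vehicle at 1% O2 it supplied 13.6%, 13.1% and 13.2%. The mean share of FOXA3 went from 33.7% ± 0.991 to 48.7% ± 0.692 (SD, n = 3), and that of FOXA2 from 30.2% ± 0.679 to 38.0% ± 0.428 (SD, n = 3). The 3 parts were near equal at 20% O2, whereas at 1% O2 FOXA3 was the largest part and FOXA1 the smallest. The ratio of FOXA2 to FOXA1 was 0.839 ± 0.0517 in vehicle at 20% O2, 2.86 ± 0.0338 in vehicle at 1% O2 and 1.08 ± 0.0325 with 32-134D (SD, n = 3). An exact permutation test of this ratio gave p = 0.1 for hypoxia and for 32-134D against vehicle at 1% O2, two-sided, the smallest that 3 against 3 libraries allow. With 32-134D, FOXA1 supplied 27.9% ± 2.22, FOXA2 30.2% ± 3.24 and FOXA3 41.9% ± 5.46 (SD, n = 3). In replicate 3 FOXA3 kept a share of 48.1%, within the range of hypoxic vehicle, against 39.3% and 38.1% in replicates 1 and 2.

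**Figure D2:**
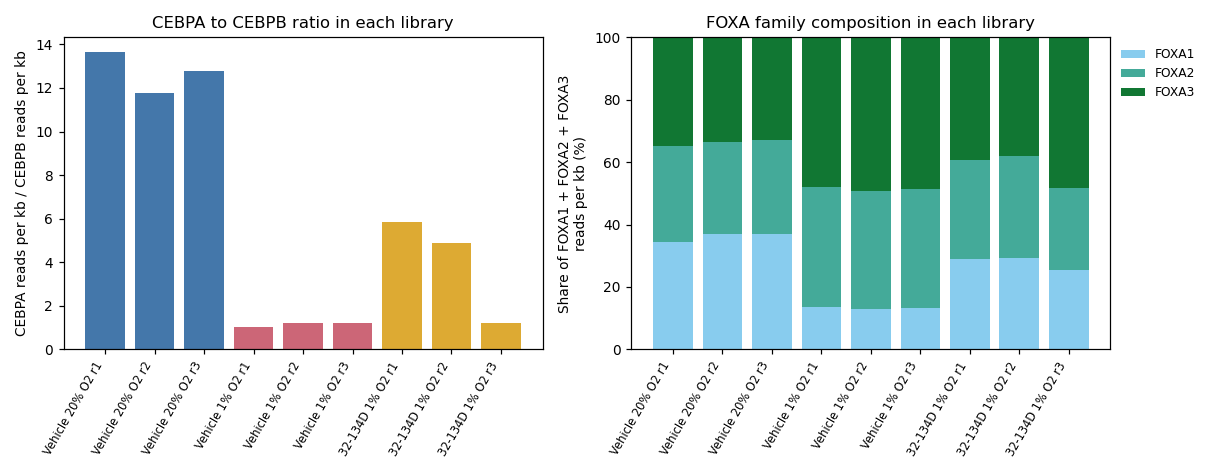
Ratio of CEBPA to CEBPB reads per kilobase (left) and shares of the 3 FOXA genes in their summed reads per kilobase (right, %), 1 bar per library, with r1 to r3 the replicates. The CEBPA to CEBPB ratio is above 11 in vehicle at 20% O2 and near 1 in vehicle at 1% O2 and in replicate 3 of 32-134D, and the FOXA1 share is smallest in vehicle at 1% O2.

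The C/EBP pair moved in opposite directions. CEBPB (ENSG00000172216, chromosome 20, 50190734 to 50192689, plus strand) was at 25.8, 28.3 and 26.2 CPM in vehicle at 20% O2. In vehicle at 1% O2 it was at 106, 95.5 and 90.2 CPM. The groups did not overlap, and its rise of 3.66-fold was the largest among the 8 genes, a log2 fold change of 1.87 (standard error 0.12, FDR 9.41e-09). The 32-134D libraries held 46.3, 53.0 and 67.5 CPM, all between the 2 vehicle groups. CEBPB fell 1.75-fold against hypoxic vehicle (log2 fold change -0.81, standard error 0.11, FDR 3.55e-05), and in log2 the difference was -0.97 (FDR 8.22e-11) without replicate 3. The antisense gene CEBPB-AS1 overlaps CEBPB by 765 bases, the strand setting of the counting is not given in the sources used here, and so a share of reads of either gene could belong to the other.

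CEBPA (ENSG00000245848, chromosome 19, 33299934 to 33302564, minus strand) was at 474, 448 and 451 CPM in vehicle at 20% O2. It was at 147, 153 and 149 CPM in vehicle at 1% O2. The 3 hypoxic libraries lay within a few CPM of each other and far below the normoxic ones. CEBPA fell 3.05-fold, a log2 fold change of -1.61 (standard error 0.29, FDR 0.000213). This standard error includes the spread of the 32-134D libraries, and without replicate 3 of 32-134D the value was -1.61 (FDR 5.34e-19). CEBPA in the 32-134D libraries was at 364, 347 and 111 CPM. Replicates 1 and 2 lay well above hypoxic vehicle, and replicate 3 lay below it. Against hypoxic vehicle CEBPA rose 1.83-fold (log2 fold change 0.87, standard error 0.28, FDR 0.0189), and in log2 the difference was 1.25 (FDR 2.63e-15) without replicate 3. The call was lost in DESeq2 (FDR 0.0510) and in a fit of only the 2 groups (FDR 0.0506). It was also lost without replicate 1 (FDR 0.0662) or 2 (FDR 0.0503) of vehicle at 1% O2, and without replicate 1 (FDR 0.0590) or 2 (FDR 0.0746) of 32-134D.

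Within each library, the ratio of CEBPA to CEBPB per length was 13.6, 11.8 and 12.8 in vehicle at 20% O2. It was 1.03, 1.19 and 1.23 in vehicle at 1% O2. CEBPA thus outnumbered CEBPB by an order of magnitude in normoxia and was close to parity with it in hypoxia, a difference of 11.1-fold between the means (exact permutation test, two-sided p = 0.1, the smallest possible). With 32-134D the ratio was 5.84, 4.87 and 1.22. Replicates 1 and 2 lay between the vehicle groups and replicate 3 lay inside the range of hypoxic vehicle, and the exact permutation test against vehicle at 1% O2 gave p = 0.2, two-sided.

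The nuclear receptors differed from each other. NR1H4 (ENSG00000012504, chromosome 12, 100473708 to 100564413, plus strand) was at 12.9, 12.6 and 13.7 CPM in vehicle at 20% O2. Vehicle at 1% O2 gave 2.81, 2.69 and 3.80 CPM, all well below the normoxic libraries. NR1H4 fell 4.21-fold, the largest decrease among the 8, with a log2 fold change of -2.08 (standard error 0.41, FDR 0.000574). Without replicate 3 of 32-134D, which widens the shared spread, it was -2.08 (FDR 5.71e-14). NR1H4 in the 32-134D libraries was at 12.8, 11.3 and 2.24 CPM. Replicates 1 and 2 were near the normoxic level, and replicate 3 was below every hypoxic vehicle library. Against hypoxic vehicle NR1H4 rose 2.88-fold (log2 fold change 1.53, standard error 0.40, FDR 0.00577), and in log2 by 1.96 (FDR 8.86e-13) without replicate 3.

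HNF4A (ENSG00000101076, chromosome 20, 44355700 to 44434596, plus strand), the central nuclear receptor of the network, was not called in any of the comparisons. It was at 335, 418 and 393 CPM in vehicle at 20% O2. It was at 357, 357 and 346 CPM in vehicle at 1% O2, inside the normoxic range. The 32-134D libraries held 349, 353 and 379.9 CPM, also inside it. The log2 fold change was -0.11 in hypoxia (95% interval -0.28 to 0.063, FDR 0.270) and 0.029 with 32-134D (95% interval -0.14 to 0.20, FDR 0.800). Both intervals lie within 1.5-fold, and the second value was -0.0095 without replicate 3. Scaled by total library size, which moved the median of all genes by -0.21 in hypoxia and 0.18 with 32-134D, the HNF4A values were -0.32 (FDR 0.00315) and 0.22 (FDR 0.0394), under the fold threshold. The other 7 genes kept their direction in both comparisons under that scaling. The antisense gene HNF4A-AS1 lies within HNF4A and had 0 to 6 counts per library.

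ONECUT1 (ENSG00000169856, chromosome 15, 52756989 to 52791078, minus strand) varied more between the normoxic replicates than the other 7 genes. It was at 73.4, 125 and 137 CPM in vehicle at 20% O2, where replicate 1 was low. Vehicle at 1% O2 gave 136, 140.5 and 146 CPM and overlapped the normoxic range. The log2 fold change in hypoxia was 0.33 (95% interval -0.28 to 0.94, FDR 0.346). Its test also depends on replicate 3 of 32-134D through the shared spread. Without that library the value was 0.33 (FDR 0.0199), under the fold threshold and not called. With 32-134D it was at 104, 116 and 40.3 CPM, below every hypoxic vehicle library, and replicate 3 was the lowest of all 9. In log2 the difference was -0.70 (standard error 0.28, FDR 0.0558) and not called, and it was -0.36 (FDR 0.0240) without replicate 3, under the fold threshold. Without replicate 2 of 32-134D it was called, at -0.96 (FDR 0.0150).

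Against vehicle at 1% O2, then, 2 of the 8 genes, CEBPA and NR1H4, were called higher with 32-134D, where 16.2% of all genes tested were. FOXA2, FOXA3 and CEBPB were called lower, 3 of 8, where 13.7% of all genes were. The same 5 genes were called without replicate 3, and the number higher was 1 in each setting in which CEBPA lost its call. Over all genes 3675 were higher and 3100 lower, against 4755 and 1847 under total library size. This comparison shares the libraries of vehicle at 1% O2 with the comparison of hypoxia.

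**Figure D3:**
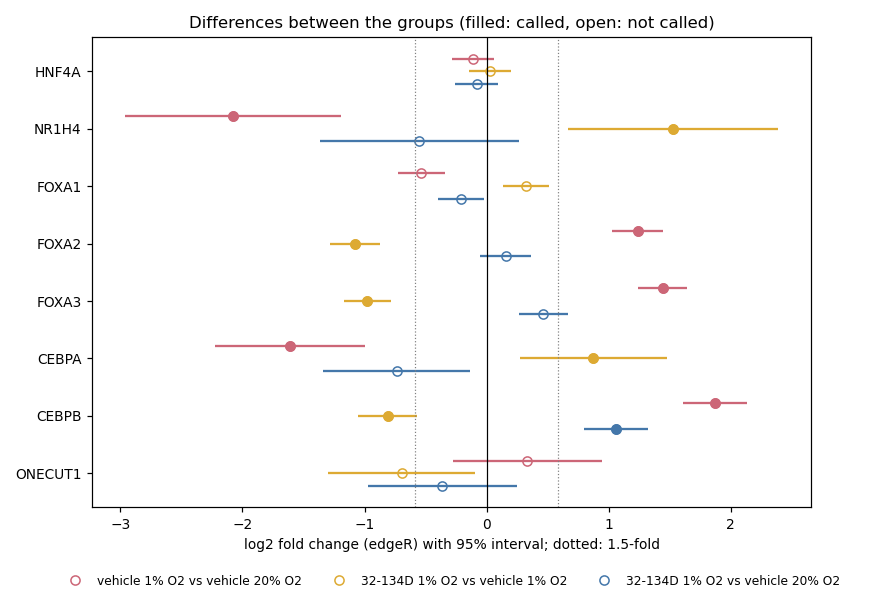
Log2 fold change of each gene with its 95% interval in the 3 comparisons, all from 1 edgeR fit of 9 libraries, with filled points for calls and dotted lines at 1.5-fold. In hypoxia CEBPB, FOXA3 and FOXA2 are filled above 0 and CEBPA and NR1H4 below it, and for 32-134D against vehicle at 20% O2 CEBPB alone is filled.

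Hypoxic cells with 32-134D were also compared with normoxic vehicle, a contrast that shares its libraries with the other 2. CEBPB was the only gene called higher, 1 of 8 where 3.0% of all genes were, with a log2 fold change of 1.06 (standard error 0.12, FDR 6.59e-05). It was thus still 2.08-fold above the normoxic level, and the log2 value was 0.90 (FDR 2.11e-08) without replicate 3, still called. FOXA3 was 1.38-fold higher, a log2 fold change of 0.47 (standard error 0.093, FDR 0.00526), under the fold threshold, and 0.38 (FDR 0.00192) without replicate 3. None of the 8 was called lower by edgeR or by DESeq2, where 0.516% of all genes were, and 2, CEBPA and FOXA1, were lower at an unadjusted p below 0.05. CEBPA had a log2 fold change of -0.74 (95% interval -1.34 to -0.14, FDR 0.116), and all 3 of its 32-134D libraries lay below all normoxic ones. Without replicate 3 it was -0.37 (FDR 0.000322), under the fold threshold. Without replicate 1 of 32-134D it was called lower, at -0.99. NR1H4 was at -0.55 (95% interval -1.36 to 0.26), and at -0.13 (FDR 0.601) without replicate 3. FOXA2 was at 0.15 (95% interval -0.053 to 0.36), with overlapping libraries, and at 0.25 (FDR 0.0307) without replicate 3. FOXA1 was at -0.21, HNF4A at -0.082 and ONECUT1 at -0.36, and without replicate 3 these values were -0.13, -0.12 and -0.029. A difference that was not called does not show that the normoxic level was restored.

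The order of the levels changed with these differences. Per length, CEBPA led in vehicle at 20% O2 with 174 ± 5.35 RPKM (SD, n = 3), followed by HNF4A with 52.2 ± 5.87 RPKM. FOXA1, FOXA3, FOXA2 and ONECUT1 came next, from 36.1 down to 29.03 RPKM, and FOXA1 overlapped FOXA3 and FOXA2 overlapped ONECUT1. CEBPB with 13.7 ± 0.671 and NR1H4 with 3.60 ± 0.154 RPKM (SD, n = 3) were last. In vehicle at 1% O2 the order was FOXA3 with 91.3 ± 10.0 RPKM, FOXA2 with 71.3 ± 6.43, CEBPA with 56.9 ± 1.22, CEBPB with 49.8 ± 4.21 and HNF4A with 48.3 ± 0.836 RPKM (SD, n = 3). Of these neighbours only CEBPB and HNF4A overlapped. ONECUT1, FOXA1 and NR1H4 followed with 36.6, 24.9 and 0.855 RPKM. By this scale CEBPB stood in the seventh place at 20% O2 and in the fourth at 1% O2, and FOXA1 in the third and the seventh. With 32-134D, CEBPA led again with 104 ± 53.7 RPKM, but its range overlapped that of HNF4A at 49.3 ± 2.31 RPKM (SD, n = 3), since replicate 3 gave 42.2 RPKM of CEBPA. The RPKM order rests on merged exon lengths, not on the transcripts these cells use, and parts of it depend on them. In CPM without a length CEBPB took the seventh place in all 3 groups, FOXA1 the third at 20% O2 and the sixth in vehicle at 1% O2, and HNF4A stood above CEBPA in both groups at 1% O2.

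The noncoding genes beside the members were followed as well. CEBPA-DT starts 293 bases from CEBPA on the other strand. It was at 11.1, 12.4 and 10.6 CPM in vehicle at 20% O2, 3.13, 2.73 and 3.39 CPM in vehicle at 1% O2 and 7.86, 7.61 and 4.39 CPM with 32-134D. Like CEBPA it fell in hypoxia, by a log2 fold change of -1.86 (standard error 0.20, FDR 1.65e-06), and rose with 32-134D, by 1.11 (standard error 0.20, FDR 0.000273). Without replicate 3 the second value was 1.32 (FDR 3.10e-09). The ratio of CEBPA to CEBPA-DT per length was 33.8 ± 3.13 in vehicle at 20% O2 and 41.0 ± 5.26 in vehicle at 1% O2 (SD, n = 3; exact permutation test, two-sided p = 0.1, the smallest possible). In replicate 3 of 32-134D the ratio was 21.1, the lowest of the 9, as CEBPA was lower there by more than its neighbour. Against vehicle at 20% O2, CEBPA-DT was called lower with 32-134D, at -0.75 (standard error 0.19, FDR 0.0209), but without replicate 3 it was -0.53 (FDR 0.00573), under the fold threshold and not called.

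LINC00261, which starts 2363 bases beyond the end of FOXA2 on the same strand, went against FOXA2. It was at 184, 189.7 and 197 CPM in vehicle at 20% O2 and 57.4, 50.9 and 56.9 CPM in vehicle at 1% O2. With 32-134D it was at 156, 155 and 55.9 CPM. LINC00261 fell 3.45-fold in hypoxia (log2 fold change -1.79, standard error 0.26, FDR 3.26e-05), where FOXA2 rose, and it rose with 32-134D (log2 fold change 1.15, standard error 0.26, FDR 0.00166), where FOXA2 fell. Without replicate 3 the values were -1.79 (FDR 3.98e-19) in hypoxia and 1.49 (FDR 2.94e-16) with 32-134D. Per length, the ratio of LINC00261 to FOXA2 was 1.13 ± 0.0418 in vehicle at 20% O2, 0.140 ± 0.0200 in vehicle at 1% O2 and 0.633 ± 0.243 with 32-134D (SD, n = 3). The exact permutation test gave p = 0.1, two-sided, the smallest possible, for each step. CEBPB-AS1 was called higher in hypoxia (log2 fold change 1.74, standard error 0.58, FDR 0.0202) at no more than 0.566 CPM in any library, and HNF4A-AS1 was not called (-2.51, FDR 0.103).

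**Figure D4:**
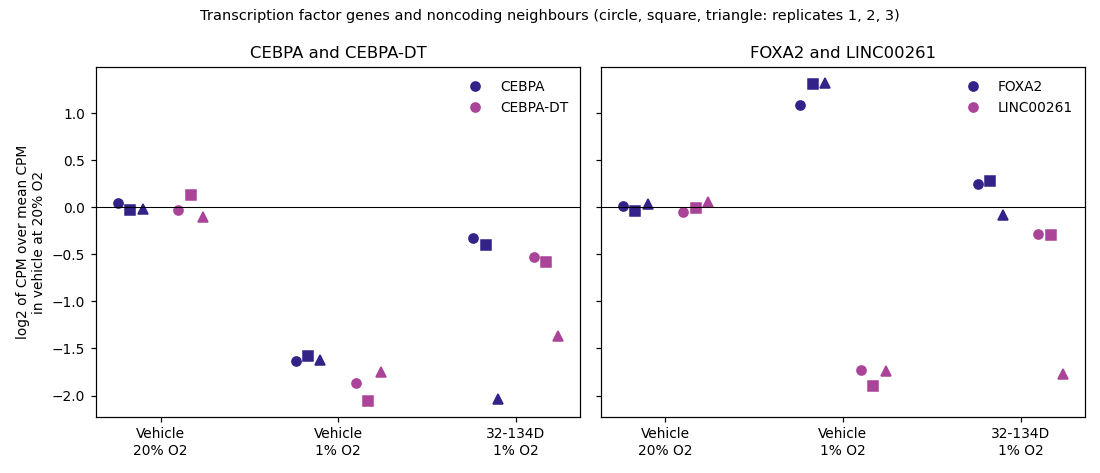
Log2 of each library's CPM over the mean CPM in vehicle at 20% O2, for CEBPA with CEBPA-DT (left) and FOXA2 with LINC00261 (right), with replicates as circles, squares and triangles. CEBPA and CEBPA-DT are both low in vehicle at 1% O2, whereas FOXA2 is above and LINC00261 below the normoxic mean, and replicate 3 of 32-134D stays low for CEBPA, CEBPA-DT and LINC00261.

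The wider set of liver transcription factors was also divided. Of 35 other factors, 34 were tested, and in hypoxia 13 rose, 9 fell and 12 were not called, with a median log2 fold change of 0.10 beside 0.0010 over all genes tested. Of all genes tested 19.5% rose and 20.3% fell. With 32-134D, 7 were higher and 12 lower, with a median of -0.28 beside -0.012, where 16.2% of all genes were higher and 13.7% lower. By total library size the number lower with 32-134D was 6, and without replicate 3 of 32-134D 9 were higher and 12 lower. PROX1, a homeobox factor of early hepatoblasts that represses HNF4A activity, had the largest fall, from 311 ± 46.8 to 32.8 ± 1.60 CPM (SD, n = 3), or -3.25 (standard error 0.10, FDR 8.61e-12) in log2. It was at 277, 287 and 269.5 CPM in the 3 libraries with 32-134D, replicate 3 among them, a log2 fold change of 3.09 (FDR 6.14e-11). KLF15, a factor of amino acid metabolism, fell by 2.45 on the log2 scale and rose by 2.02 with 32-134D. DDIT3 (CHOP), a C/EBP family member induced by stress, rose by 2.10 and was at -1.22 with 32-134D. NFIL3, a repressor that binds related sites, rose by 1.89 and was at -1.43 with 32-134D. Without replicate 3 the values with 32-134D were 3.11 for PROX1, 2.01 for KLF15, -1.32 for DDIT3 and -1.28 for NFIL3. RXRA, the dimer partner of FXR, fell from 278 ± 25.1 to 122 ± 5.08 CPM (SD, n = 3; log2 fold change -1.18, standard error 0.14, FDR 5.54e-06) and was named after its value was seen.

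Target genes of the members, from lists written from general knowledge, were counted in the same fit. The counts of each list stand beside the shares of all genes tested. These were 19.5% higher and 20.3% lower in hypoxia, and 16.2% higher and 13.7% lower with 32-134D. Counts in short lists near these shares are not a result about the targets. Of 22 HNF4A targets 17 were tested. In hypoxia 4 rose and 5 fell, near the shares of all genes, with a median of -0.088, and HNF4A itself was not called. Among the 4 that rose, G6PC1 and PCK1, named after their values were seen, had under 1 CPM in each group. APOB, the main protein of very low density lipoproteins, fell from 4487 ± 1077 to 406 ± 24.6 CPM (SD, n = 3), or -3.47 (standard error 0.18, FDR 7.60e-10) in log2, and was at 3884, 3968 and 2707 CPM with 32-134D (3.12, FDR 5.98e-09). PKLR, the liver pyruvate kinase, and APOC2, a lipase cofactor, fell by 1.87 and 1.59 on the log2 scale. APOA4, another apolipoprotein, rose by 1.72 in hypoxia and was at -3.08 with 32-134D. With 32-134D, 5 targets were higher and 6 lower, and 3 were lower without replicate 3. Without it APOB was at 3.28 and APOA4 at -3.14. ALB, the albumin gene, counted among the C/EBP and FOXA targets, had a log2 fold change of 0.039 in hypoxia.

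The called FXR targets were lower in hypoxia. Of 20 targets 17 were tested. In hypoxia 8 fell and 0 rose by edgeR or by DESeq2, with 1 higher at an unadjusted p below 0.05, and the median log2 fold change was -0.66. Of all genes 20.3% fell and 19.5% rose, and the number of FXR targets that fell was 5 where at least 10 counts were asked of each library. The bile acid and organic anion transporter SLCO1B3 fell from 1.80 ± 0.503 to 0.402 ± 0.0824 CPM (SD, n = 3; log2 fold change -2.18, standard error 0.41, FDR 0.000385). SLC51B, a subunit of the bile acid exporter, fell by 1.76 and FETUB, a secreted protease inhibitor, by 1.76 on the log2 scale. Both levels were low, from 2.24 ± 0.471 to 0.660 ± 0.205 CPM for SLC51B and from 1.73 ± 0.216 to 0.489 ± 0.303 CPM for FETUB (SD, n = 3). NR0B2 (SHP), a repressor induced by FXR, was not called in hypoxia (0.025, FDR 0.819) and is named after its value was seen. With 32-134D, 5 FXR targets were higher and 2 lower, with a median of 0.23. The 2 lower were FGA and FGB, fibrinogen chains, named after their values were seen. Without replicate 3, 8 were higher and 0 lower. No target was called lower without any one library of vehicle at 1% O2, or without replicate 1 of vehicle at 20% O2, and 1 was without replicate 2 or 3 of vehicle at 20% O2.

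Of 16 C/EBP targets 13 were tested, and in hypoxia 3 rose and 6 fell, with a median of -0.42. Of all genes tested 19.5% rose and 20.3% fell. PCK1, among the 3 that rose and named after its value was seen, had under 1 CPM in each group. CPS1, the first enzyme of the urea cycle, fell from 16.8 ± 2.78 to 1.84 ± 0.649 CPM (SD, n = 3; log2 fold change -3.18, standard error 0.59, FDR 0.000317). Complement C3 fell by 1.66 and the acute phase gene ORM2 by 0.90 on the log2 scale. TRIB1, which promotes degradation of the CEBPA protein, rose by 0.81 and was at -0.61 with 32-134D, or -0.63 without replicate 3. Of the 6 that fell, CRP, HP and ITIH4, named after their values were seen, had under 1 CPM in each group, and 3 fell and 1 rose without replicate 3 of vehicle at 20% O2 or replicate 1 of vehicle at 1% O2. With 32-134D, 2 were higher and 2 lower, with a median of 0.36. Without replicate 3, 5 were higher and 1 lower. Without replicate 3 of vehicle at 1% O2, 4 were higher. The number lower was 1 without replicate 1 of vehicle at 20% O2, without any one library of vehicle at 1% O2 and without replicate 1 or 2 of 32-134D.

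All 14 FOXA targets were tested, and in hypoxia 4 rose and 2 fell, with a median of 0.12. Of all genes tested 19.5% rose and 20.3% fell. Among the 4 that rose, G6PC1 and PCK1, named after their values were seen, had under 1 CPM in each group. IGFBP1, which binds insulin-like growth factors, had the largest rise, from 2.07 ± 0.257 to 84.2 ± 4.49 CPM (SD, n = 3; log2 fold change 5.39, standard error 0.13, FDR 1.47e-12). With 32-134D it was at 52.4, 48.5 and 61.7 CPM (-0.64, FDR 4.17e-05) and still far above normoxic vehicle (4.75, FDR 6.30e-11). Without replicate 3 these values were -0.74 and 4.65. TAT, which degrades tyrosine, rose by 0.77 from 1.46 CPM, and AFP, the fetal albumin, fell by 0.69 on the log2 scale. Without replicate 3 of vehicle at 20% O2 or replicate 1 of vehicle at 1% O2, 2 rose. The number that fell was 1 without replicate 1 or 2 of vehicle at 20% O2 or replicate 1 of vehicle at 1% O2. With 32-134D, 1 target was higher and 6 were lower, with a median of -0.43. The number lower was 2 without replicate 3, in DESeq2 and under total library size, and it was 3 without replicate 1 of vehicle at 20% O2 or replicate 3 of vehicle at 1% O2. The lists overlap, since CPS1, TAT, ALB and PCK1 stand in the C/EBP and FOXA lists and APOC2 in the HNF4A and FXR lists. The HNF4A and FOXA lists share G6PC1, PCK1, TF, TTR, APOA1 and SERPINA1, so their counts are not independent.

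**Figure D5:**
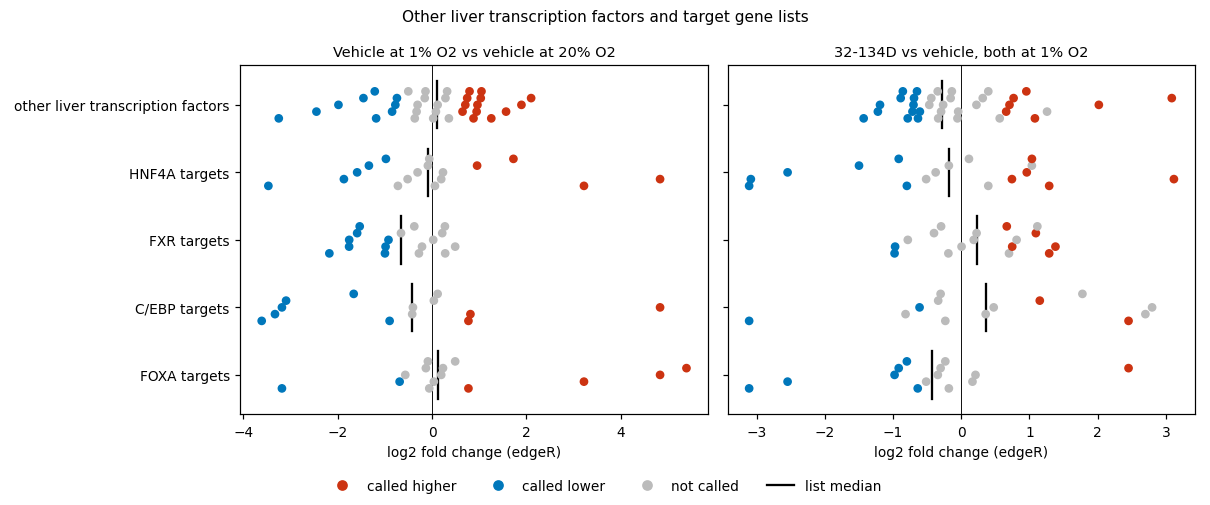
Log2 fold changes of the tested genes of 5 lists in hypoxia (left) and with 32-134D (right), 1 point per gene, coloured by the call, with the list median as a bar. FXR targets have 8 points called lower and 0 called higher in hypoxia, and the other lists hold points called in both directions.

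Finally, the genes whose profile was most like FOXA2, CEBPB, CEBPA and NR1H4 were sought by the Pearson correlation of log2 CPM over the 9 libraries, among 13911 genes with a mean of at least 1 CPM. For FOXA2 they were SLC29A1 (r = 0.998) and HNRNPL (r = 0.998). For CEBPB they were STC2 (r = 0.995) and USO1 (r = 0.995), and for CEBPA DCAF6 (r = 0.996) and HSD17B2 (r = 0.994). For NR1H4 they were CPS1 (r = 0.996) and HSD17B2 (r = 0.994), the former also a listed C/EBP and FOXA target. These correlations describe 9 libraries that share 3 conditions, and the profiles of CEBPA and NR1H4 include the low replicate 3 of 32-134D.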

How the data were processed

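RNA-seq gene counts were analysed for 9 Hep3B libraries, grouped by the labels. The authors trimmed reads with Bbduk after FastQC, aligned them with STAR to an Ensembl reference and counted them per gene with featureCounts, and MultiQC and DESeq2 are also named in the submitters' processing notes. The deposited values are raw counts without normalization. The Ensembl release is named, but the versions of the tools and the strand setting are not given in the sources used here.

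Genes with a summed count of at least 10 were tested. All 9 libraries were fitted together with edgeR 4.0.16 (quasi-likelihood test, scaling by the trimmed mean of M values, R 4.3.3), after a check on simulated counts, and a gene was called where the FDR (Benjamini-Hochberg) was under 0.05 with a change of over 1.5-fold. The common biological coefficient of variation was 10.5%. Intervals are 95%. Depth per library was 6013980 to 40549699 counts, which limits genes under 1 CPM most. Exon lengths and positions came from GENCODE 29 (GRCh38) and promoter windows from RefSeq (GRCh38.p14). GENCODE 29 is not the annotation release used for the counts, and it held 58496 of the 60683 genes. Motifs were searched as exact letters on both strands, and CACGTG contains a HIF core on each strand. Ratios within libraries were compared by two-sided exact permutation tests.

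The text names the 8 members, their 4 noncoding neighbours, up to 4 called genes per list with the largest change in hypoxia and at least 1 CPM in the higher group, and the 2 genes most correlated with each member called in both main comparisons (log2 CPM, prior count 2), of which those for FOXA3 are not reported here. Members and lists were chosen with earlier results of these data known. Alternatives were other scaling, filters, fold thresholds, fits of only the groups compared, the replicate number as a block, DESeq2 1.42.0 and leaving out each library. The replicates are labelled biological, and their source beyond that is not stated.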

Additional observations from a re-analysis of the deposited data

How the results depend on the processing

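Of the counts of called genes, 327 values stayed within 1.5 times the main count and 61 moved, most of them in short lists. Members called higher with 32-134D numbered 1 above 2-fold, with only the 2 groups compared and in DESeq2, and members called lower 1 above 2-fold. Against normoxic vehicle, 2 were higher with no fold threshold and 1 lower with no filter on low counts. Scaled by total library size, 32-134D gave 6 other factors lower, 0 FXR targets lower, 5 C/EBP targets higher and 1 lower, and 2 FOXA targets lower. With at least 10 counts in every library, HNF4A targets gave 1 higher in hypoxia and 2 lower with 32-134D, FXR targets 5 lower and 0 lower, C/EBP targets 3 lower and 0 lower, and FOXA targets 2 higher and 1 lower. With only the 2 groups compared, 0 FXR, 1 C/EBP and 2 FOXA targets were lower with 32-134D, and DESeq2 gave 0, 0 and 2. Without 1 library, members ranged from 1 to 2 higher and 3 to 4 lower with 32-134D, and from 0 to 1 lower against normoxic vehicle. HNF4A targets ranged from 3 to 7 lower with 32-134D. FXR targets ranged from 4 to 8 higher and 0 to 3 lower with 32-134D. C/EBP targets ranged in hypoxia from 1 to 3 higher and 3 to 6 lower, and with 32-134D from 2 to 5 higher and 1 to 2 lower. FOXA targets ranged in hypoxia from 2 to 4 higher and 1 to 3 lower, and with 32-134D from 2 to 6 lower. The log2 fold change of HNF4A with 32-134D, when 1 library was left out, ranged from -0.0095 (without replicate 3 of 32-134D) to 0.11. Over all genes tested, samples with the same replicate number did not deviate together (correlations -0.032 to 0.0052). With 3 replicates per group, this cannot show whether equal numbers share an origin that affects fewer genes. With the replicate number as a block, 1 C/EBP target was lower with 32-134D and ONECUT1 was called lower there, at -0.74, while the other calls among the 8 genes stayed. By CPM without a length, FOXA3 took rank 6 and ONECUT1 rank 4 in vehicle at 20% O2. The cause of these moves was not tested. Counts under about 10 per library limit the targets below 1 CPM.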
